A study of Mus musculus with 4 samples.

Results

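The actin monomer and filament turnover genes of the thymosin, profilin and cofilin families were followed in mouse testes lacking Taf7l. The set holds 10 genes, namely the thymosins Tmsb15a, Tmsb4x and Tmsb10, the profilins Pfn1, Pfn2, Pfn3 and Pfn4, and the cofilins Cfl1, Cfl2 and Dstn. It was taken by gene symbol, with every probe set annotated to 1 of these genes alone, which gave 19 of the 45037 mouse probe sets on the array (10 of 18193 named genes). Tmsb15a, Pfn3 and Pfn4 were grouped as testis isoforms (3 probe sets) and the other 7 genes as general isoforms (16 probe sets). The genes were picked with earlier results of the same knockout and wild type arrays in view. Their differences, and any statistical call on them, are therefore given only as a description.

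Whole testes were taken from male mice at 8 weeks of age on a C57BL/6J background, either Taf7l knockout (KO, 2 arrays) or wild type (WT, 2 arrays). The wild type animals are described as littermates. The sources used here do not describe the mutant allele further. Taf7l, an X-linked germ cell relative of the TFIID subunit gene Taf7, had a signal of 80.6 and 72.5 on the KO arrays, against 829 and 818 on the WT arrays (log2 difference −3.43, SE 0.097, limma adjusted p = 0.0033). The labels do not say which part of Taf7l was removed or where its probes lie, so the value is only a partial check of the genotypes. The title of the second KO array calls it replicate 2 while its description says replicate 1, so the 2 KO arrays may not be separate animals, and the spread behind each p-value may be that of arrays only. Signals are linear intensities made with MAS5, which stand on a separate scale for each probe set, so no gene's level is set against another's. The array medians were 45.3 and 45.7 in KO and 45.3 and 45.2 in WT, while the mean signal after trimming 2% at each end was 465 and 481 in KO against 509 in both WT arrays, a log2 difference of −0.105 that is close in size to those of the brightest Tmsb10 and Pfn2 probe sets below. All differences below are KO minus WT means of log2 signal, with limma's standard error (SE).

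Actin filaments grow from monomers that are held ready by small binding proteins. Thymosins bind monomers and keep them out of filaments, profilins hand monomers to growing ends and to formins, and cofilins sever and disassemble old filaments. In the testis, actin is found in the spermatid head, in the Sertoli cell junctions that hold spermatids and in the interstitial cells, and several of these proteins have forms that are made mostly in male germ cells, Pfn3 and Pfn4 among them.

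The bases before the annotated starts of the 3 testis isoforms, and of Tmsb4x as the general thymosin that also lies on the X chromosome, are printed here because Taf7l belongs to a family of core promoter factors. RefSeq's table of assembly GRCm38.p6 gave a window for all 10 genes. Capitals mark TATAAA, the half-site TGACG of the cAMP response element, TGACTCA and CCAAT on either strand. Each run is the 250 bases before the start, read 5′ to 3′ on the gene's strand.
Tmsb15a (chrX:135720674-135720923, minus strand): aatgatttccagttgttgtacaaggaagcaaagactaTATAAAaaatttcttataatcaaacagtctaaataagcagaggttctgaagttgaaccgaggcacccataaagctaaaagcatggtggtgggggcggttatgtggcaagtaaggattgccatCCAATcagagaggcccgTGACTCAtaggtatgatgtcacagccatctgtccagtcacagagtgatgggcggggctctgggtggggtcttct
Pfn3 (chr13:55415233-55415482, minus strand): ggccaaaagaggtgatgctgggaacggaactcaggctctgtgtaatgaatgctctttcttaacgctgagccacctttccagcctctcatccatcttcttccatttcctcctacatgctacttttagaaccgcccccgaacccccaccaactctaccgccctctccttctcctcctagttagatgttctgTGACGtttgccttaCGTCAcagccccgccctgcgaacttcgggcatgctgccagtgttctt
Pfn4 (chr12:4769045-4769294, plus strand): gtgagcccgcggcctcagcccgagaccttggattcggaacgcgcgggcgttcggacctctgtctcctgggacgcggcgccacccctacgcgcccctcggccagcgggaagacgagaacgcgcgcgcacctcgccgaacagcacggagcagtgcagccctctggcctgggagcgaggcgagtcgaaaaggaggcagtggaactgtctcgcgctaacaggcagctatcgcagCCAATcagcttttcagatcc
Tmsb4x (chrX:167209219-167209468, minus strand): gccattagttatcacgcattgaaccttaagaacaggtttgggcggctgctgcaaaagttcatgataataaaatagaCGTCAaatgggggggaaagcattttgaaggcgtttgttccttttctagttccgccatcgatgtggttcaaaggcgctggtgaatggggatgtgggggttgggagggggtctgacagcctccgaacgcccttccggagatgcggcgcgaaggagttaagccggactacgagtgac
The Tmsb15a window held 1 TATAAA far from the start, at −213 to −208 counted from the start, with TGACTCA at −74 to −68 and CCAAT at −91 to −87. In the Pfn3 window there were TGACG half-sites on both strands, at −61 to −57 and −47 to −43, and no TATAAA. Pfn4 had only CCAAT, at −20 to −16, and Tmsb4x only 1 reverse half-site. Of all 32851 windows of this length, 12.4% held TATAAA, 17.8% TGACG, 4.46% TGACTCA and 33.8% CCAAT on either strand. The full element TGACGTCA (1.55% of windows) and the CArG box bound by serum response factor (1.47%) were searched too and were in none of the 12 windows of the 10 genes. Such matches describe letters, not bound sites. The Tmsb15a window had 45.6% G and C and 4 CpG, against 53.2% and 10 for Pfn3, 67.2% and 30 for Pfn4, and medians of 52.4% and 6 over all windows.

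Tmsb15a, whose product is an actin monomer-binding thymosin, was lower in the knockout testis than in wild type. Its only probe set had signals of 8664 and 9699 on the KO arrays, against 14595 and 15566 on the WT arrays. Both KO arrays lay far under both WT arrays. The means were 9182 ± 731 in KO and 15081 ± 686 in WT (SD, n = 2 each), so the KO signal was 1.64-fold lower (log2 −0.72, SE 0.074). Of the 22519 probe sets kept by the filter on mean signal, 187 (0.83%) had a log2 difference at least as low. Nothing is read from that share, since the gene was chosen with this comparison known. With any 1 array left out the difference stayed between −0.80 and −0.64.

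Further thymosin genes lie on the X chromosome near Tmsb15a and are covered by 2 probe sets that the annotation gives to several genes at once, which were left out of the set. The brighter of these had 1362 and 1982 on the KO arrays, against 2460 and 2698 on the WT arrays (log2 −0.65, SE 0.184), with no overlap and no call. The dimmer had 17.4 and 17.0 in KO and 24.7 and 27.1 in WT, under the filter, where signals are mostly background. How far these probe sets and that of Tmsb15a read each other's transcripts was not tested.

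The general thymosins did not share the size of that difference. Tmsb4x, the thymosin of blood and many other cells, had 7193 and 8557 in KO, against 7770 and 7925 in WT. The KO arrays lay on either side of the WT arrays, and the means, 7875 ± 965 and 7848 ± 110, differed by 0.00 on the log2 scale (SE 0.092), with the sign turning between scalings (0.10 after quantile normalization, −0.01 after median centring). Tmsb10, a thymosin of proliferating and embryonic cells, was read by 5 probe sets. The brightest had 58523 and 56817 in KO and 62986 and 59643 in WT (log2 −0.09, SE 0.047). The next 2 in brightness were at −0.19 and −0.26, so the 3 bright probe sets of Tmsb10 were all lower in KO with no overlap, and none was called. A dim probe set of the gene went the other way, at 222 and 213 in KO against 175 and 174 in WT (log2 0.32, SE 0.089), and the last, at 18.5 to 19.1 in KO and 18.9 to 20.6 in WT, was under the filter.

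**Figure D1:**
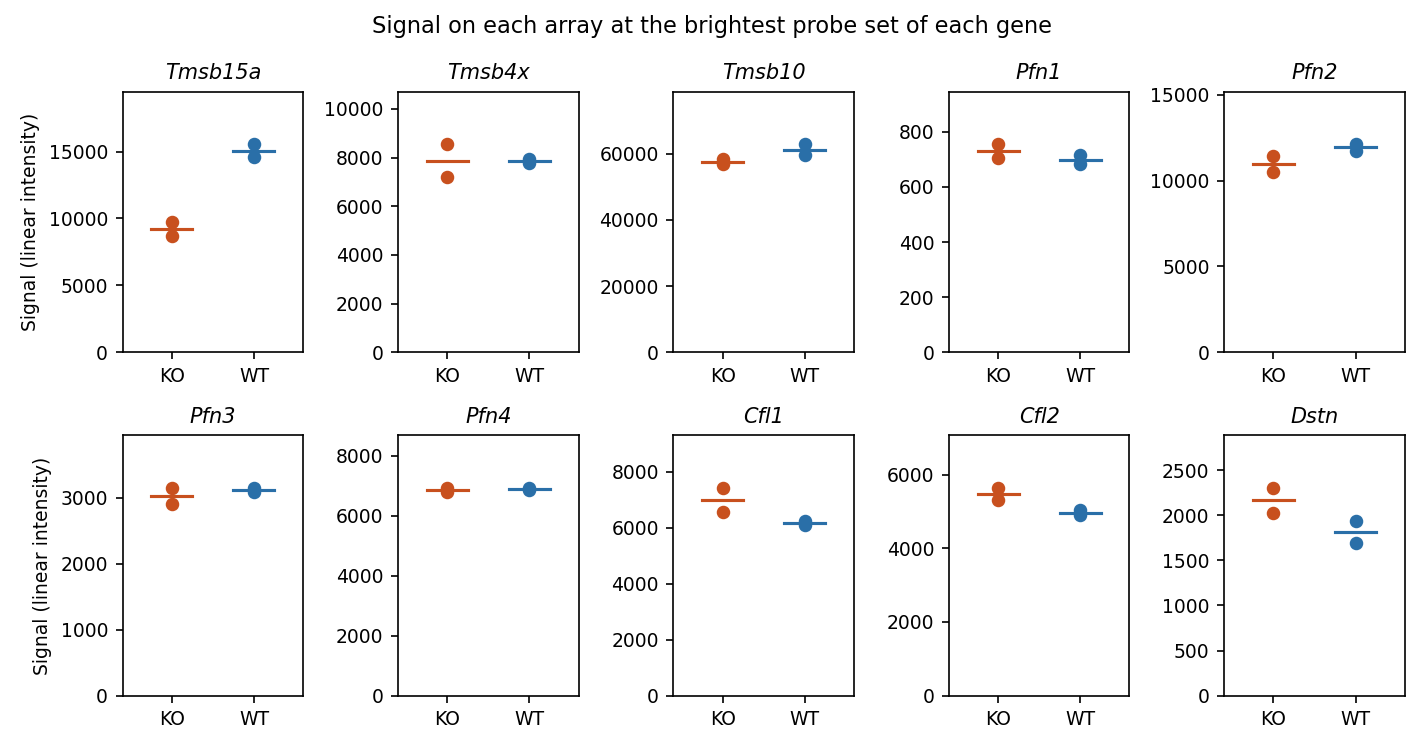
Linear signal on each of the 2 KO and 2 WT arrays at the brightest probe set of each of the 10 genes (points), with group means (bars) and each gene on its own axis from 0. Tmsb15a stands at 8664 and 9699 in KO and 14595 and 15566 in WT, while for Pfn3, Pfn4, Tmsb4x and Pfn1 the groups overlap.

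Both testis profilins kept close to their wild type signal. Pfn3, a profilin of spermatids, had 2905 and 3158 in KO and 3087 and 3155 in WT, with overlapping groups. Its means were 3032 ± 179 and 3121 ± 47.9 (log2 −0.04, SE 0.068, and 0.09 after quantile normalization). Pfn4, also a profilin of male germ cells, had 6798 and 6944 in KO and 6859 and 6926 in WT. The KO arrays of Pfn4 enclosed the WT arrays, and the difference was −0.005 (SE 0.051, and 0.11 after quantile normalization).

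Of the general profilins, Pfn2 leaned lower and Pfn1 overlapped. Pfn2, the profilin best known from neurons, was lower in KO at all 3 of its probe sets with no overlap of the groups and no call. At the brightest it had 10527 and 11422 in KO and 12129 and 11730 in WT (log2 −0.12, SE 0.061), and the other 2 differed by −0.15 and −0.23. These differences of Pfn2 shrank to −0.04, −0.02 and −0.11 after quantile normalization. Pfn1, the profilin of most cells, had 705 and 756 in KO and 683 and 714 in WT (log2 0.06, SE 0.080), and the groups overlapped.

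The cofilin family leaned higher in KO, without a call. Dstn, which encodes the actin depolymerising factor destrin, had 2029 and 2306 in KO, against 1690 and 1937 in WT (log2 0.26, SE 0.103). The 2 KO arrays of Dstn lay above both WT arrays by less than the distance between the arrays of either genotype. Cfl2, known as the muscle cofilin, had 5316 and 5649 in KO and 5027 and 4905 in WT at its brightest probe set (log2 0.14, SE 0.060), with no overlap. Its other 2 probe sets were at 0.16 and 0.13, and the dimmer of these turned to −0.02 without KO replicate 2. At the middle one the WT arrays held the same value, 326.9, so their spread there is 0 and cannot be read. Cfl1, the cofilin of most cells, gave opposite answers at its 2 probe sets. The brighter had 6545 and 7432 in KO and 6245 and 6096 in WT (log2 0.18, SE 0.077), and the dimmer had 1299 and 1523 in KO and 1597 and 1582 in WT (log2 −0.18, SE 0.095). The groups stood apart at both, so no direction is given for Cfl1.

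**Figure D2:**
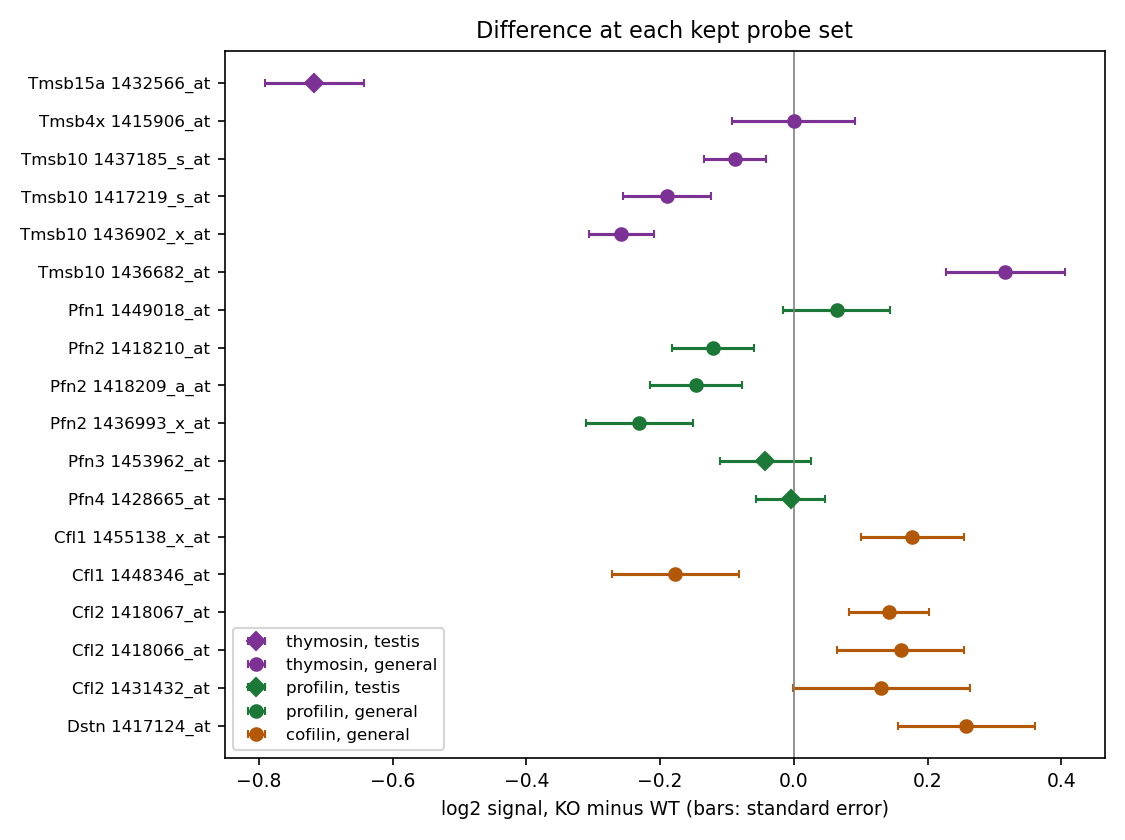
KO minus WT difference of mean log2 signal (x axis) with limma's standard error at the 18 kept probe sets of the 10 genes (y axis), coloured by family, diamonds for testis isoforms and circles for general ones. Tmsb15a lies at −0.72 and every other probe set between −0.26 and 0.32, with Tmsb10 and Cfl1 on both sides of 0.

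Over the 18 probe sets that passed the filter, 11 were lower and 7 higher in KO (61.1% lower, against 60.0% of all kept probe sets), and the median difference was −0.02, against −0.05 over all kept probe sets. The limma rule, an adjusted p under 0.05 over all kept probe sets, called 1 of the 18, beside 1.39% of all kept probe sets. That 1 was Tmsb15a, lower (0.941% of all kept probe sets were called lower), and 0 were called higher (0.444%). The Tmsb15a call was lost with no filter, without the variance trend and when any 1 array was left out. At an unadjusted p under 0.05 there were 4 lower and 1 higher, beside 17.8% and 6.96% of all kept probe sets. The groups did not overlap at 13 of the 18 (8 lower, 5 higher), beside 55.0% of all kept probe sets (36.3% lower, 18.7% higher). Nothing is read from these counts, since the genes were chosen with this comparison known. Over all kept probe sets the rule called 100 higher and 212 lower, a split of 32.1% higher that became 61.5% after quantile normalization.

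The testis isoforms did not move together. At the brightest probe set of each gene, Tmsb15a was at −0.72, Pfn3 at −0.04 and Pfn4 at −0.005, a median of −0.04. The 7 general genes ran from −0.12 (Pfn2) to 0.26 (Dstn), with a median of 0.06. The testis median lay 0.11 under the general one, and 0.05 under it after quantile normalization. Taken on each array, the testis median of log2 signal minus the general one had an SD of 0.08 between arrays of a genotype, pooled over both. That SD is of signal levels and not of KO minus WT differences, so it is only a rough guide to the spread of the gap. The 3 testis genes are not replicates of a class, and no test was made over them.

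Among the other genes of actin turnover, from a list of 81 genes grouped by role, 62 were measured at a kept probe set, and each is given at its brightest. Of these, 0 were called by limma in either direction (beside 1.20% of all genes called lower and 0.539% higher), and 13 were lower and 5 higher at an unadjusted p under 0.05, beside 20.4% and 7.49% of all genes. In sign, 36 were lower and 26 higher (58.1% lower, against 60.7% of all 12241 genes), with a median of −0.05, as over all genes. No probe set of a further thymosin gene alone was present, so that role is empty. Formins, which build filaments from profilin-bound monomers, were lower in 8 of 10 genes (median −0.18), and capping and severing proteins in 7 of 11 (median −0.17). The 4 tropomyosins, which coat filaments, were all higher at their brightest probe sets (median 0.17), as were both actins. Dimmer kept probe sets of the tropomyosin genes Tpm1, Tpm2 and Tpm3 were lower, at −0.227, −0.285 and −0.416. A further one of Tpm3 was higher, at 0.204. No direction is therefore given for these genes, which were named after their values were seen. Nucleators such as the Arp complex were lower in 6 of 11 (median −0.05, but 0.01 after quantile normalization).

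Among the enzymes that switch cofilin off or on, the testis-enriched kinase gene Tesk1 had 5530 and 5993 in KO and 7399 and 7202 in WT (log2 −0.34, SE 0.063, limma adjusted p = 0.063). Its relative Tesk2 was at 1804 ± 26.3 in KO and 1924 ± 42.5 in WT (log2 −0.09, limma adjusted p = 0.43). Limk1, a LIM kinase that phosphorylates cofilin, had 99.1 and 93.7 in KO and 62.2 and 55.4 in WT (log2 0.72, SE 0.108, limma adjusted p = 0.051), but its other kept probe set differed by −0.004. Limk2 was at 968 ± 43.6 in KO and 986 ± 1.20 in WT, and the cofilin phosphatase gene Ssh1, at 60.5 ± 4.15 and 63.3 ± 7.65, was near the filter too. None of these 5 genes passed the rule.

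The actin genes themselves differed little at their brightest probe sets. Actb was at 20020 ± 1381 in KO and 18961 ± 314 in WT and Actg1 at 24003 ± 1156 in KO and 22945 ± 264 in WT, both of them cytoplasmic actins (limma adjusted p = 0.51 for each). A dimmer Actb probe set was lower by 0.12. Capza3, the capping protein subunit of male germ cells, had 19193 and 20334 in KO and 22517 and 22013 in WT (log2 −0.17, SE 0.051, limma adjusted p = 0.12). Wdr1, which helps cofilin take filaments apart, was at 1934 ± 43.5 in KO and 1784 ± 59.8 in WT (adjusted p = 0.34 by limma). The monomer binder Cap1 and the profilin ligand Vasp each differed by 0.04, with Cap1 near the filter (means of 65.2 in KO and 63.6 in WT). Enah, a relative of Vasp, differed by −0.33 at its brightest probe set (limma adjusted p = 0.20), with −0.60 to 0.03 at its other 4.

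**Figure D3:**
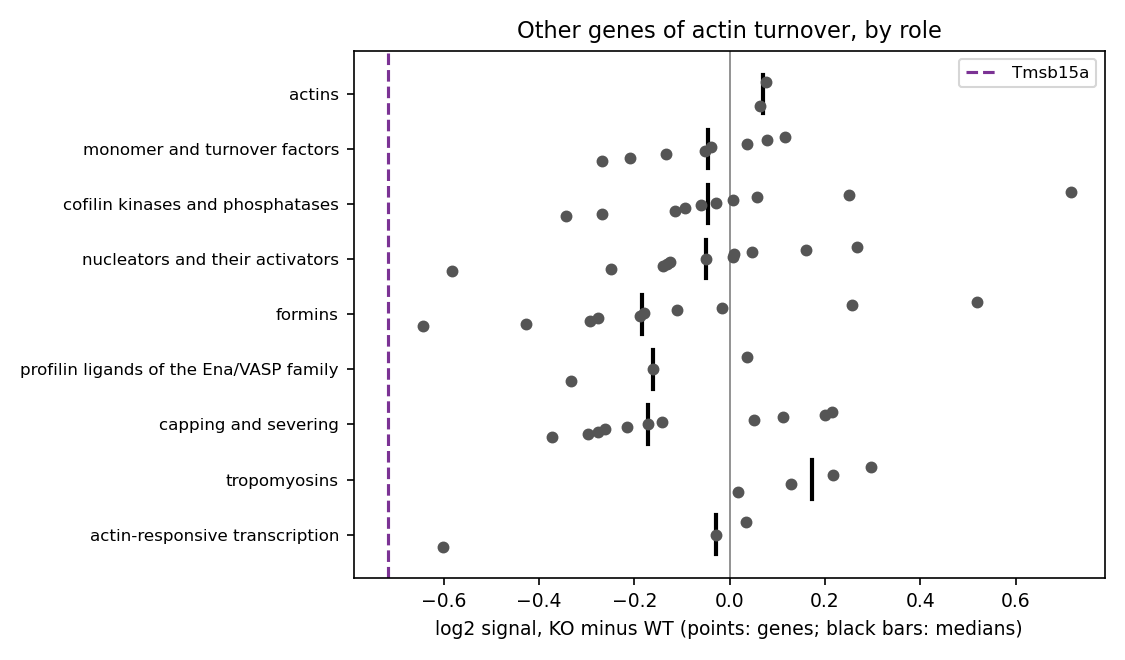
KO minus WT log2 difference (x axis) of the 62 measured genes of actin turnover, each point a gene at its brightest kept probe set, by role (y axis), with the median of each role as a black bar and Tmsb15a as a dashed line at −0.72. The genes run from −0.64 to 0.72, and both actins and all 4 tropomyosins lie above 0 at these probe sets with no call.

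The tissue label was checked with marker genes, which also show what moved beside Tmsb15a. For comparison, 60.7% of all genes were lower in KO, and the median over all genes was −0.05. At an unadjusted limma p under 0.05, 20.4% of all genes were lower and 7.49% higher. The limma rule called 1.20% of all genes lower and 0.539% higher. Spermatid markers were bright on all arrays. The protamine gene Prm1 was at 93155 ± 1707 in KO and 89760 ± 7073 in WT, and the transition protein gene Tnp1 at 83065 ± 2470 and 93154 ± 3040. Of 8 spermatid markers 7 were lower in KO and 0 were called by limma (3 lower at an unadjusted p under 0.05), with differences from −0.30 to 0.06, a median of −0.13 (−0.07 after quantile normalization), and summed signals of 393624 to 405773 in KO and 422619 to 435218 in WT. Tmsb15a was at −0.72, and whether spermatid content has a part in that difference was not tested. All 5 measured Leydig cell markers were higher in KO (median 0.34, summed signal 20460 to 20906 in KO and 16431 to 16641 in WT), and Cyp17a1, a steroid hydroxylase gene, rose 1.26-fold (limma adjusted p = 0.0496). All 6 measured leukocyte markers were higher, with none called by limma (2 at an unadjusted p under 0.05), among them C1qb and H2-Aa (median 0.22, summed signal 1977 to 2004 in KO and 1569 to 1677 in WT). The leukocyte genes Ptprc and Cd68 were under the filter. All 4 endothelial markers were under it too, so endothelium is read through no gene, and red cells are read through Alas2 alone (log2 −0.29, no call), with Hba-a1 under the filter. In whole testis, fewer cells of a type and less RNA per cell cannot be told apart. The 4 measured adipocyte markers had summed signals of 945 and 1653 in KO and 844 and 3968 in WT. Fabp4, Car3 and Lpl were each highest in WT replicate 2 with overlapping groups, whereas Adipoq, the adiponectin gene, had 293 and 368 in KO and 450 and 558 in WT, with no overlap and no call (log2 −0.61, SE 0.161). Of the 2 measured epididymis genes, Cuzd1 had 117 and 129 in KO and 192 and 436 in WT (log2 −1.24, SE 0.380, no call), and Defb15 overlapped. Among 6 spermatocyte markers 4 were lower and 0 were called (median −0.04, and 0.04 after quantile normalization). The 2 brightest, Ldhc and Pgk2, differed by −0.02 and −0.10, and Sycp1 and Sycp3 by 0.05 and 0.02. The lowest was Hspa2, a germ cell heat shock protein gene, at 13748 and 14418 in KO and 18156 and 17711 in WT (log2 −0.35, limma adjusted p = 0.051). Of 7 measured Sertoli markers 4 were higher and 0 were called (median 0.04). The 2 brightest, Clu and Cldn11, differed by 0.27 and −0.004. Rhox5 differed by 0.29 and Gata4 by −0.20. The groups did not overlap for Clu and Rhox5, and overlapped for Cldn11 and Gata4. Of 4 measured spermatogonial markers 2 were lower and 2 higher (median 0.03). Of 4 measured markers of peritubular myoid cells and smooth muscle 1 was lower and 3 higher (median 0.05). In both lists 0 were called. Adipoq, Lpl, Hspa2, Sycp1, Sycp3, Rhox5, Gata4 and the markers named as under the filter were chosen after their values were seen. On the actin control probe sets, a sign of RNA integrity, 3′ signal over 5′ signal was 2.42 and 2.18 in KO and 2.09 and 1.999 in WT. The same ratio on the Gapdh controls went the other way, at 0.927 and 0.938 in KO and 1.041 and 0.990 in WT. The part of these shifts in the differences of Tmsb15a, Tmsb10, Pfn2 and the cofilins was not tested.

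**Figure D4:**
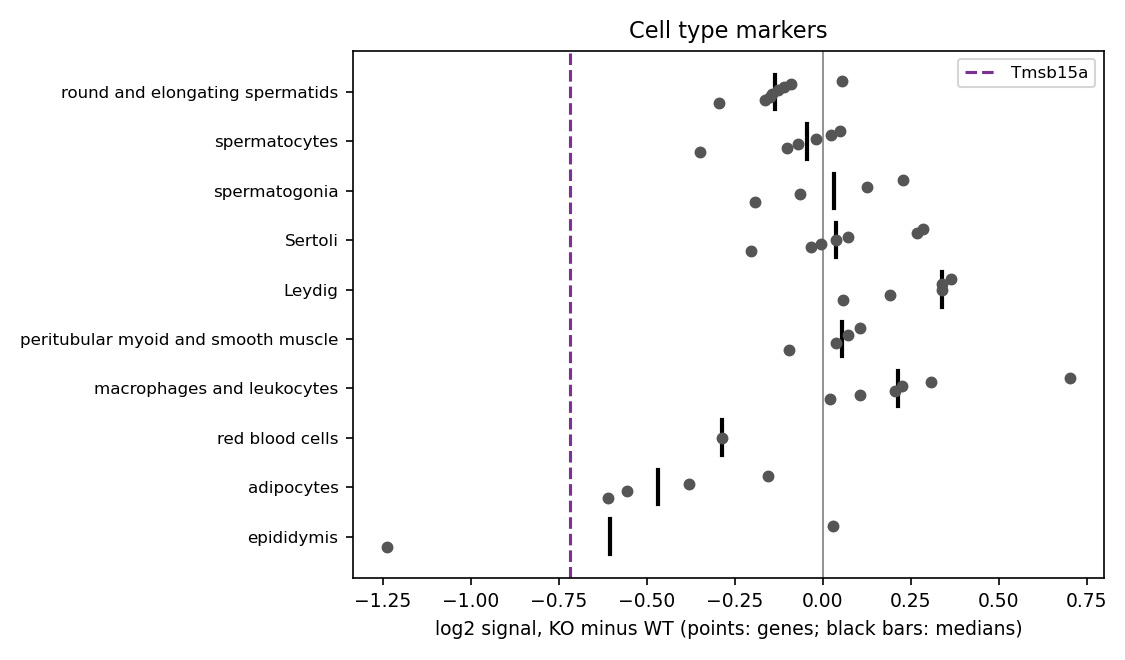
KO minus WT log2 difference (x axis) of 47 measured cell type markers, each point a gene at its brightest kept probe set, by cell type (y axis), with list medians as black bars and Tmsb15a as a dashed line. Tmsb15a is at −0.72, spermatid markers lie between −0.30 and 0.06, and Leydig and leukocyte markers all lie above 0.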

How the data were processed

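RNA of 4 testes arrays was read as probe set signals. The deposited table holds 1 linear intensity per array for each of 45101 probe sets, 64 of them controls, and per the submitters' processing notes the signals were made with MAS5, whose version and scaling target are not given in the sources used here. Identical values stand on KO replicate 2 and WT replicate 2 at 2385 probe sets, on other pairs at 229 to 620.

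The log2 of each signal was used as it stands, with no scaling added. Probe sets with a mean signal at or above the median (45.8) were kept, 22519 in all, and limma 3.58.1 (R 4.3.3) tested KO against WT (lmFit, eBayes with a trend, two-sided, Benjamini-Hochberg adjustment over all kept probe sets, 2 residual and 3.17 prior degrees of freedom). An exact permutation test of 2 against 2 arrays cannot go below p = 0.333. In simulated data for this comparison (22519 kept probe sets), the fit recovered 34.4% of changes of 0.5 and 90.8% of changes of 1 on the log2 scale, and 4.3% of its calls were false. The simulated arrays had independent noise, no shift in scale and few changed probe sets. These rates may therefore not hold for the deposited arrays. The number of arrays, 4, limits precision.

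Genes were named through the platform annotation, updated by gene ID through RefSeq's table of GRCm38.p6. Of 45037 mouse probe sets, 34945 had 1 symbol, 932 several and 9160 none, and 34741 matched. The members and lists were chosen with earlier results of these data known. The naming rule takes Taf7l, all 10 genes, 12 listed genes of actin turnover, any of that list that were called, and the 2 brightest markers of each cell type; not all of these are named. The main fit did not treat arrays as paired by replicate number. Deviations of same-numbered arrays from their group means correlated at 0.032, which cannot show whether such arrays shared a litter or batch. As alternatives the scaling (quantile, or centring on the median), the offset (5.52), the filter (none, or at the 75th percentile) and the variance prior were changed, and further ones were a replicate block, other probe set choices, an adjusted p under 0.10, and leaving out each array.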

Additional observations from a re-analysis of the deposited data

How the results depend on the processing

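Tmsb15a stayed lower under every alternative run, between −0.80 and −0.62, and of the 19 probe sets of the 10 genes 15 never changed sign, the exceptions being those of Tmsb4x, Pfn3, Pfn4 and the dimmest of Cfl2. The count of called probe sets of these genes was 1, Tmsb15a, and became 2 with the 75th percentile filter or an adjusted p under 0.10, both adding a Tmsb10 probe set, and 0 with no filter, without the variance trend, or with any 1 array left out (0 to 0). Of 18 kept probe sets 11 were lower, but 8 of 18 with quantile normalization and without KO replicate 1, so that most were higher there (8 to 12 with 1 array left out), and 6 of 12 with single-transcript probe sets. The testis median stayed between −0.12 and −0.04 relative to the general one. Over all kept probe sets the 312 calls became 148 with quantile normalization, 646 with median centring, 2375 with the 75th percentile filter, 179 with single-transcript probe sets, 36 without the variance trend, 2628 when the adjusted p could reach 0.10, and 0 with no filter (6192 at an unadjusted p under 0.05) or with any 1 array left out (0 to 0, with limma giving 3084 to 5500 at an unadjusted p under 0.05). The replicate block gave 541 calls, Tmsb15a among them, and called 1 gene of actin turnover, Mrtfa (chosen after its values were seen), where there were 0. That count was 1, Limk1, with median centring, and 6 with the 75th percentile filter or at an adjusted p under 0.10. The median of the actin turnover list, −0.05, was 0.014 with quantile normalization, −0.060 with median centring, −0.032 with no filter, −0.114 with the 75th percentile filter, −0.097 with the mean of a gene's probe sets, −0.061 with single-transcript probe sets and −0.089 to −0.006 with 1 array left out. Taf7l stayed at −3.43 with no filter (adjusted p = 0.065) and between −3.51 and −3.35 with 1 array left out, where limma's adjusted p was 0.057 to 0.353. The cause of these changes was not tested, beyond the fewer arrays or probe sets that some settings hold. With 2 arrays a group, small differences such as those of the profilins were not resolvable.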

Other observations

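By gene order in RefSeq's table, 22 protein-coding genes lie between Taf7l and Tmsb15a on the X chromosome. They were looked up after the Tmsb15a values were seen, so only counts and values are given. Of these, 11 had a kept probe set and 7 were lower in KO, beside 60.7% of all genes. The median difference was −0.01 (range −0.65 to 0.15), against −0.05 over all genes. The limma rule called 1 of them lower, beside 1.20% of all genes. Tcp11x2, the neighbour of Tmsb15a in that stretch, fell by limma's rule, with signals of 1137 and 1108 on the KO arrays and 1712 and 1815 on the WT arrays (log2 −0.65, SE 0.069). Hnrnph2, an RNA-binding protein gene, had 1033 and 1197 in KO and 1542 and 1538 in WT (log2 −0.47, limma adjusted p = 0.067), and the other 9 lay between −0.12 and 0.15. Whether position on the chromosome has a part in the Tmsb15a difference was not tested.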
